A study of Mus musculus with 12 samples.

Results

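The cadherin switch and the transcription factors of the epithelial-mesenchymal transition (EMT) were read in 10 genes, named by their symbols among the 52550 genes of the expression tables. They were the cadherin genes Cdh1, Cdh2 and Cdh3, the transcription factor genes Snai1, Snai2, Zeb1, Zeb2 and Twist1, and the epithelial regulators Esrp1 and Grhl2. All 10 were listed and all 10 passed the filter on low counts. Cdh2, Cdh3 and Esrp1 passed it only through the D2.OR libraries, so a difference between the cell lines was built into their passing.

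Cadherins are calcium-dependent adhesion proteins that hold neighbouring cells together at adherens junctions through catenins. Epithelial cells of the mammary gland carry E-cadherin, and in an EMT they lose it while N-cadherin may appear in its place, an exchange known as the cadherin switch. The zinc-finger repressors of the Snail and Zeb families and the basic helix-loop-helix factor Twist1 are known to repress E-cadherin, whereas Esrp1, which sets epithelial splicing, and Grhl2, an activator of junction genes, maintain the epithelial state.

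Messenger RNA was sequenced from D2A1 and D2.OR, mouse mammary carcinoma cell lines that serve as a metastatic and a dormancy-prone model. Each line was grown on plastic (2D) or on a bed of growth-factor-reduced Matrigel, a basement membrane extract (3D). The 12 libraries form 4 groups of 3 replicates, D2A1 2D, D2A1 3D, D2.OR 2D and D2.OR 3D, and the labels name no genetic change or drug for any of them. The RNA was taken after a week of culture. The medium described for Matrigel holds horse serum, hydrocortisone, cholera toxin and insulin. The methods leave unclear whether the 2D cultures had the same medium, and a change of medium or the recovery of cells from Matrigel cannot be told apart from 3D culture. Each cell line is 1 established line, and RNA of the 3D cultures came from pooled wells. Replicates 1, 2 and 3 are called batches 1, 2 and 3 here. In the labels each batch was also 1 sequencing lane, so culture, extraction day and lane cannot be told apart. Whether the batches were separate cultures is not stated in the labels, and p-values measure the spread between these libraries.

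The libraries held 47589611 to 73325069 expected counts. Of 7 epithelial markers, D2.OR held 5 at a mean of at least 1 TPM (RSEM's relative abundance of transcripts, a level per transcript length) in 2D and in 3D. D2A1 held 2, Krt18 and Krt8, with Krt8 at 0.87 to 2.02 TPM in 2D, and Krt5 was listed at 0 in every 2D library of both lines. Summed leukocyte markers reached at most 0.61 TPM and summed endothelial markers at most 0.91 TPM in any library. Summed fibroblast markers were at 17.5 to 30.3 TPM in D2A1 2D and 96.0 to 201 TPM in D2.OR 2D, mostly Pdgfra and Col6a3, with Thy1 at 0 to 0.15 TPM in D2.OR 2D. The part of these other cell type markers in the results below was not tested. In bulk RNA, fewer cells of a type and less RNA per cell cannot be told apart.

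Promoter sequences are shown for the member genes found in the RefSeq promoter table (build GRCm38.p6, 250 bases before to 50 after a transcription start) and for 3 epithelial genes of the lists below, since factors of the Snail and Zeb families bind the E-box CAGGTG. Of the 10 genes, 3 matched (Snai1, Twist1 and Zeb2) and 7 did not (Cdh1, Cdh2, Cdh3, Snai2, Zeb1, Esrp1 and Grhl2). Each sequence runs 5′ to 3′ on the strand of the gene, and capitals mark the E-box, CAGGTG or its reverse complement CACCTG. Snai1 is at chr2:167537945-167538244 on the plus strand, Twist1 at chr12:33957421-33957720 on the plus strand, and Zeb2 at chr2:45117393-45117692 on the minus strand, the most upstream of its 4 starts in the table. The keratin gene Krt8 is at chr15:102004293-102004592 on the minus strand, the adhesion gene Epcam at chr17:87635729-87636028 on the plus strand, and the desmosomal gene Dsp at chr13:38151044-38151343 on the plus strand.
Snai1: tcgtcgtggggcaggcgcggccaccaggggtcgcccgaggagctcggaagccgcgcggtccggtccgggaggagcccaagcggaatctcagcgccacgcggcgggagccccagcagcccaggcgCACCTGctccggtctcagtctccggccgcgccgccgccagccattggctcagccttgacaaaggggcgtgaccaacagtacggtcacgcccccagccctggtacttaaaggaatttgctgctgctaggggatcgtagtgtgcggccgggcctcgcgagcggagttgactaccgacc
Twist1: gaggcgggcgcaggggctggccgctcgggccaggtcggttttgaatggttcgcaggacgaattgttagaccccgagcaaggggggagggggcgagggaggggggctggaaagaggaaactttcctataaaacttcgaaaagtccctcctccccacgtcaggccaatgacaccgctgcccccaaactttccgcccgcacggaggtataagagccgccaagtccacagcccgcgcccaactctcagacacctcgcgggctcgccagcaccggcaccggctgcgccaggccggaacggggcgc
Zeb2: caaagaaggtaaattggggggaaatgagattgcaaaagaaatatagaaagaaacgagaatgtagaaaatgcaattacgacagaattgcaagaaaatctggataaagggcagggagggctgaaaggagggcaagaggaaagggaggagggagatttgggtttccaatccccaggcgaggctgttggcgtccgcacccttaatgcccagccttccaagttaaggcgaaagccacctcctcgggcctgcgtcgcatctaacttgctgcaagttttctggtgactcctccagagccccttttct
Krt8: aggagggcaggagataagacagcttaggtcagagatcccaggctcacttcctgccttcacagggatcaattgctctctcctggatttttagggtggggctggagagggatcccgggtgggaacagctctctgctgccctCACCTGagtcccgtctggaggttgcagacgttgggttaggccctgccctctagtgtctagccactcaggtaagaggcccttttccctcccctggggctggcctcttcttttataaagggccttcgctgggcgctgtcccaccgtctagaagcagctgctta
Epcam: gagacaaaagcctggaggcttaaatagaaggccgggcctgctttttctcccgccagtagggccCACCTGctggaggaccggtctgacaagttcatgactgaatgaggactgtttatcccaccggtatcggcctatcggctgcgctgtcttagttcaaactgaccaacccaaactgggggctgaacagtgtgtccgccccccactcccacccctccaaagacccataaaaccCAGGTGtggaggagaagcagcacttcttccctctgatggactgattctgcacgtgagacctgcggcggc
Dsp: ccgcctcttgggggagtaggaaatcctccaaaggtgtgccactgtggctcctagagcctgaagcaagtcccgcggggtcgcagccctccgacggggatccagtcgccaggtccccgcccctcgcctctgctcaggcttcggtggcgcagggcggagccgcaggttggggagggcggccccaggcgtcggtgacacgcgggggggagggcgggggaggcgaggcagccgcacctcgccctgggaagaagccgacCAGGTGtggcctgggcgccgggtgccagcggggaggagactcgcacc
The Snai1 promoter held 1 E-box, CACCTG, beginning at base -126 from the start. The Twist1 promoter and this Zeb2 promoter held none. Krt8 held CACCTG at -111, Epcam held CACCTG at -187 and CAGGTG at -19, and Dsp held CAGGTG from base 4 of the transcript. A match is a description of the letters and not of binding.

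D2.OR and D2A1 were first compared in 2D, on plastic. Of the 10 genes, 8 were higher in D2.OR and 1, Zeb1, was lower, while Twist1 did not pass the test (edgeR's quasi-likelihood test with Benjamini-Hochberg adjusted p under 0.05). The background was high, since 49.8% of all 16823 genes tested were called in this comparison, 4275 higher and 4103 lower. The genes higher in D2.OR included both cadherins of epithelia and 3 of the EMT factors. The median log2 fold change of the 10 was 1.76, also with the 3 genes that D2A1 held at 3 counts or fewer set at their bound, beside -0.003 over all genes tested. The 3 genes that passed the filter only through D2.OR could raise this median only, and of the other 7 genes 5 were higher and 1 lower.

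**Figure D1:**
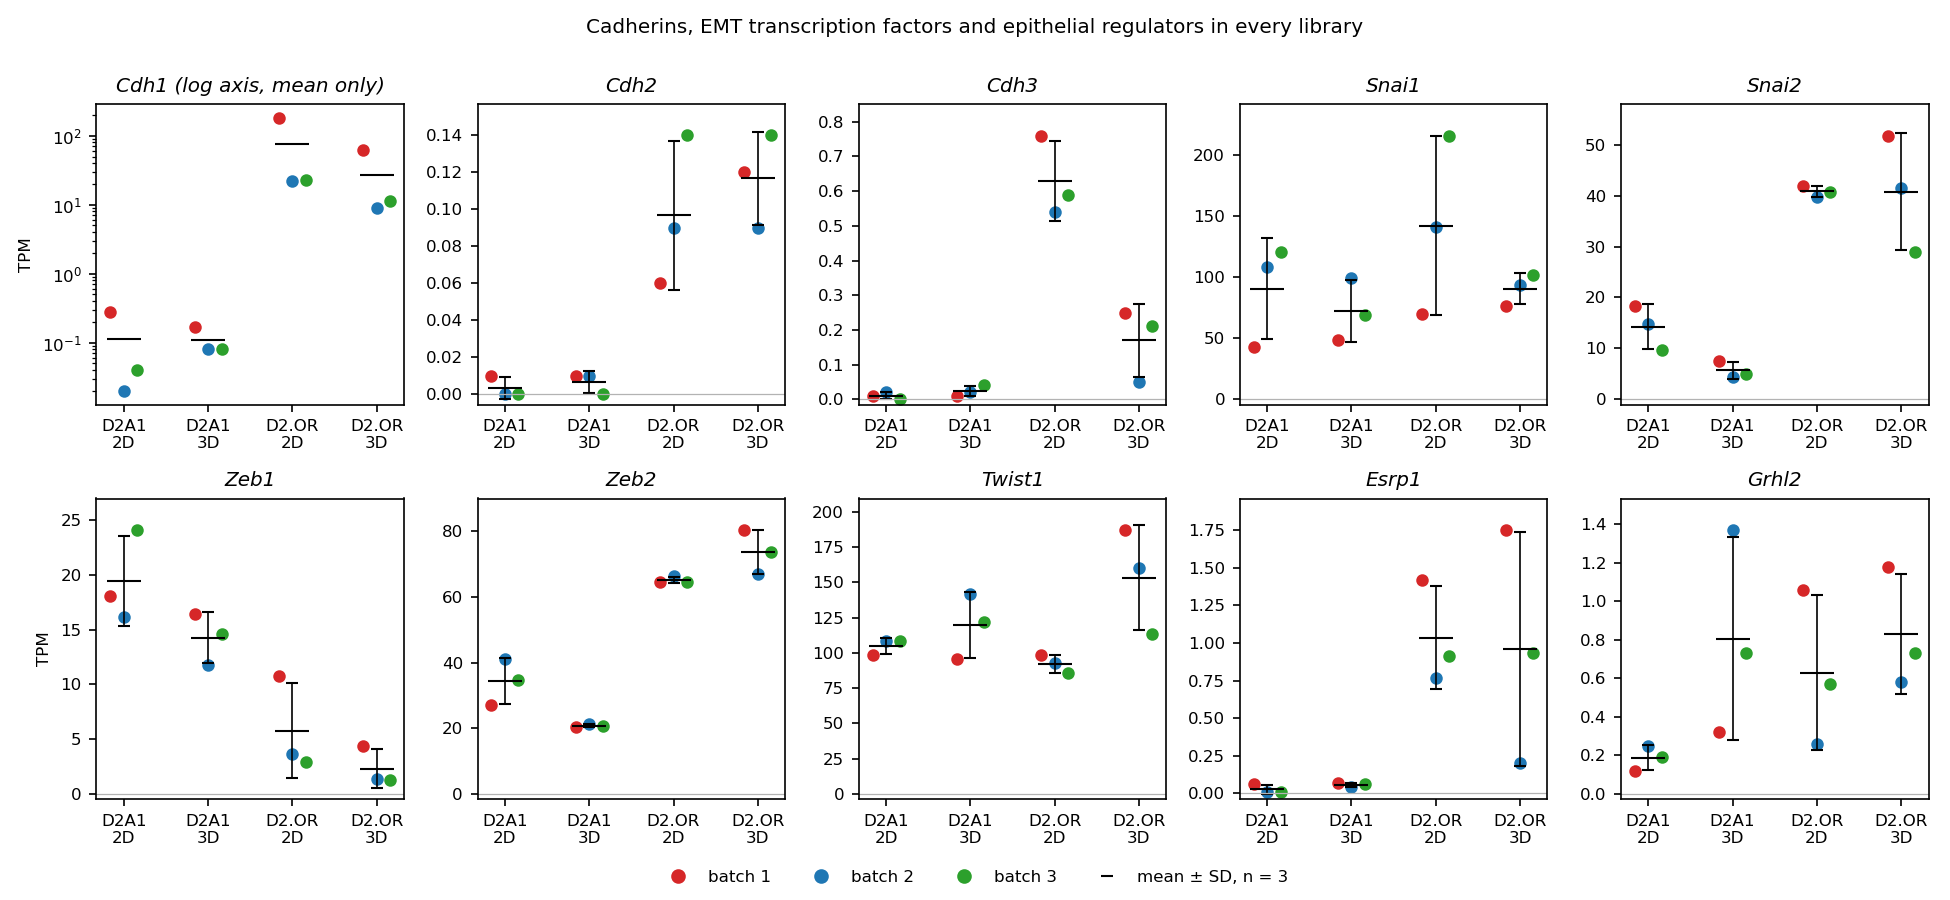
Levels of the 10 genes in TPM (vertical axes) in every library of the 4 groups, with points coloured by batch and bars for the mean ± SD (n = 3), except for Cdh1, which is drawn on a log axis with the mean only. Cdh1 was at 22.2 TPM or more in D2.OR 2D and at 0.28 TPM or less in D2A1, and Zeb1 had its higher levels in D2A1 in both cultures.

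E-cadherin showed the largest fitted log2 fold change of the 10 between the lines. Cdh1 (ENSMUSG00000000303.12) lies on chromosome 8 at 106603351 to 106670246 (GRCm38, plus strand). In batches 1, 2 and 3 it was at 0.28, 0.02 and 0.04 TPM in D2A1 2D, from 22, 3 and 6 counts, and at 183, 22.2 and 23.0 TPM in D2.OR 2D, from 34391, 3027 and 3078 counts. All D2.OR libraries lay far above all D2A1 libraries, and batch 1 was the highest of its group in both lines. The log2 fold change was 9.81 ± 0.33 (SE), or 897-fold, with an adjusted p of 1.23e-07 by edgeR's quasi-likelihood test. In 3D, Cdh1 was at 0.17, 0.08 and 0.08 TPM in D2A1 and at 61.3, 8.93 and 11.5 TPM in D2.OR. The groups again did not overlap, and the log2 fold change was 7.99 ± 0.31 (adjusted p = 2.66e-07, edgeR). Within batches 1, 2 and 3 the log2 ratio in 3D was 8.48, 7.26 and 7.56.

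N-cadherin, the mesenchymal partner in the switch, was near the detection limit in every library. Cdh2 (ENSMUSG00000024304.14) lies on chromosome 18 at 16588877 to 16809246 (minus strand). It had 1, 0 and 0 counts in D2A1 2D and 2, 1 and 0 in D2A1 3D, at or under the limit of 3 counts set for detection. D2.OR had 9, 10 and 16 counts in 2D and 15, 13 and 20 in 3D, or 0.06 to 0.14 TPM in 2D. The groups did not overlap, and against a count of 3 per library Cdh2 of D2.OR stood at least 3.98-fold higher in 2D and at least 5.79-fold higher in 3D (adjusted p = 0.00295 and 0.00235, edgeR). The 2D call was lost without replicate 2 and with limma on log2(TPM + 1). The line with E-cadherin RNA was also the line with the few N-cadherin reads, and in D2A1, where Cdh1 was low, Cdh2 was not above the limit of detection.

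P-cadherin is the cadherin of basal mammary cells. Cdh3 (ENSMUSG00000061048.8) lies on chromosome 8 at 106510891 to 106557297, on the same strand as Cdh1 and 46053 bases before it, with 2 annotated genes, Gm10073 and 1110028F18Rik, in between. It had 1, 3 and 0 counts in D2A1 2D and was at 0.76, 0.54 and 0.59 TPM in D2.OR 2D, from 142, 74 and 78 counts. All D2.OR libraries were higher, by at least 31.2-fold against 3 counts (adjusted p = 0.000293, edgeR). In 3D, Cdh3 had 2, 3 and 7 counts in D2A1 and 37, 8 and 36 in D2.OR, with a log2 fold change of 2.76 ± 0.70 (adjusted p = 0.00892, edgeR). That call was lost without replicate 1, where the log2 fold change was 2.11 (adjusted p = 0.0638, edgeR), and with limma on log2(TPM + 1). Cdh1 and Cdh3 thus shared the direction of the line difference on neighbouring loci, at levels that differed by a mean of 76.2 ± 92.8 against 0.63 ± 0.115 TPM in D2.OR 2D (SD, n = 3).

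Among the EMT transcription factors, Zeb1 was the 1 gene lower in the line with E-cadherin. Zeb1 (ENSMUSG00000024238.14) encodes a zinc-finger homeobox repressor and lies on chromosome 18 at 5591860 to 5775467 (plus strand). It was at 18.1, 16.2 and 24.1 TPM in D2A1 2D and at 10.8, 3.66 and 2.88 TPM in D2.OR 2D. The groups did not overlap, with a gap that was narrowest in batch 1. TPM depended here on transcript length, since the mean transcript length that RSEM weighted by isoform ran from 1387 to 3319 bases over the D2.OR 2D libraries and from 3315 to 4685 over D2A1 2D. In CPM (counts relative to the TMM-scaled library total, not divided by length) D2.OR 2D stood at 8.54, 7.31 and 5.30 against 45.9, 42.3 and 43.9 in D2A1 2D, so batch 1 stood less apart. The log2 fold change was -2.68 ± 0.35 in 2D and -3.21 ± 0.36 in 3D, or 6.41-fold and 9.29-fold lower in D2.OR (adjusted p = 0.000287 and 0.000115, edgeR). These folds are of counts not divided by length, so the lower weighted lengths in D2.OR add to them. With limma on log2(TPM + 1) the difference was -1.76 in 2D and -2.32 in 3D. On log2(TPM + 0.1) it was -1.96 in 2D and -2.80 in 3D.

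Zeb2, the paralogue of Zeb1, differed in the opposite direction. Zeb2 (ENSMUSG00000026872.17, chromosome 2, 44983632 to 45117395, minus strand) was at 27.2, 41.1 and 34.8 TPM in D2A1 2D and at 64.7, 66.3 and 64.6 TPM in D2.OR 2D. In 3D it was at 20.5, 21.2 and 20.6 TPM in D2A1 and at 80.4, 67.0 and 73.8 TPM in D2.OR. All D2.OR libraries were higher in both cultures, by a log2 fold change of 1.15 ± 0.13 in 2D and 1.96 ± 0.13 in 3D (adjusted p = 0.00013 and 6.32e-06, edgeR). In D2A1 2D the mean of Zeb2 exceeded that of Zeb1, 34.4 ± 6.94 against 19.5 ± 4.09 TPM, and in D2.OR 2D it stood at 65.2 ± 0.931 against 5.80 ± 4.39 TPM (SD, n = 3).

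Snai2, which encodes Slug, was also higher in D2.OR. Snai2 (ENSMUSG00000022676.6, chromosome 16, 14705852 to 14709395, plus strand) was at 18.4, 14.7 and 9.77 TPM in D2A1 2D and at 42.0, 39.8 and 40.8 TPM in D2.OR 2D. In 3D it was at 7.58, 4.40 and 5.04 TPM in D2A1 and at 51.8, 41.6 and 29.0 TPM in D2.OR. No library of 1 line reached the range of the other, and the log2 fold change was 1.70 ± 0.18 in 2D and 2.81 ± 0.19 in 3D (adjusted p = 8.24e-05 and 5.32e-06, edgeR).

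Snai1, which encodes the repressor Snail, was lowest in batch 1 of every group. Snai1 (ENSMUSG00000042821.7, chromosome 2, 167538195 to 167542814, plus strand) was at 43.2, 108 and 121 TPM in D2A1 2D and at 69.7, 141 and 216 TPM in D2.OR 2D. The groups overlapped, yet D2.OR was the higher line within each batch, with log2 ratios of 0.82, 0.52 and 0.96. The log2 fold change was 0.78 ± 0.24 (adjusted p = 0.0234, edgeR), and without the batch block the adjusted p was 0.187. The call was also lost with limma, without replicate 2 or 3 and without the single libraries D2A1 2D 1, D2A1 2D 2 or D2.OR 2D 3. In 3D, Snai1 was at 48.5, 99.4 and 68.8 TPM in D2A1 and at 76.6, 93.5 and 102 TPM in D2.OR, and the log2 fold change of 0.35 ± 0.24 did not pass (adjusted p = 0.24, edgeR).

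Twist1, a basic helix-loop-helix factor of mesoderm and EMT, was the most abundant of the 5 factors by mean in D2A1 and in D2.OR 3D. Twist1 (ENSMUSG00000035799.6, chromosome 12, 33957671 to 33959829, plus strand) was at 98.3, 108 and 108 TPM in D2A1 2D and at 98.3, 92.8 and 85.7 TPM in D2.OR 2D. Batch 1 was at the same level in both lines, and the log2 fold change of -0.05 ± 0.18 did not pass (adjusted p = 0.84, edgeR). In 3D the levels were 95.4, 142 and 122 TPM in D2A1 and 187, 160 and 113 TPM in D2.OR, overlapping, with a log2 fold change of 0.31 ± 0.18 (adjusted p = 0.178, edgeR). The RNA of all 5 factors together summed to 205 to 297 TPM in D2A1 2D and 286 to 410 TPM in D2.OR 2D, and to 188 to 278 against 319 to 400 TPM in 3D. The sums overlapped in 2D and did not in 3D. Within each batch D2.OR was higher in both cultures, in 2D at 286, 343 and 410 against 205, 288 and 297 TPM in batches 1, 2 and 3. The makeup differed between the lines, with less Zeb1 and more Zeb2 and Snai2 in D2.OR.

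The epithelial splicing regulator Esrp1 went with Cdh1. Esrp1 (ENSMUSG00000040728.15, chromosome 4, 11331933 to 11386783, minus strand) had 3, 1 and 1 counts in D2A1 2D and was at 1.42, 0.77 and 0.91 TPM in D2.OR 2D, from 204, 78 and 99 counts. D2.OR was at least 39.8-fold higher against 3 counts (adjusted p = 4.59e-05, edgeR). In 3D, Esrp1 was at 0.07, 0.04 and 0.06 TPM in D2A1 and at 1.75, 0.20 and 0.93 TPM in D2.OR, with no overlap and a log2 fold change of 4.13 ± 0.50 (adjusted p = 0.000155, edgeR). Its level in D2.OR was at most 1.75 TPM, beside a Cdh1 level of 8.93 TPM or more in the same libraries.

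Grhl2, an activator of E-cadherin and other junction genes, was low in both lines. Grhl2 (ENSMUSG00000022286.15, chromosome 15, 37233036 to 37363569, plus strand) was at 0.12, 0.25 and 0.19 TPM in D2A1 2D and at 1.06, 0.26 and 0.57 TPM in D2.OR 2D. The nearest libraries, at 0.25 and 0.26 TPM, all but met, and the log2 fold change was 1.83 ± 0.68 with an adjusted p of 0.0493 by edgeR's quasi-likelihood test. This call held in 8 of 23 alternative fits and was lost with limma, with DESeq2's size factors, in a fit of the 6 libraries compared, without replicate 1, 2 or 3 and without any 1 of 8 single libraries (D2A1 2D 1, 2 and 3, D2A1 3D 2 and 3, D2.OR 2D 1 and 3, and D2.OR 3D 3). In 3D the lines overlapped, at 0.32, 1.37 and 0.73 TPM in D2A1 and 1.18, 0.58 and 0.73 TPM in D2.OR (log2 fold change -0.09 ± 0.63, adjusted p = 0.912, edgeR).

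**Figure D2:**
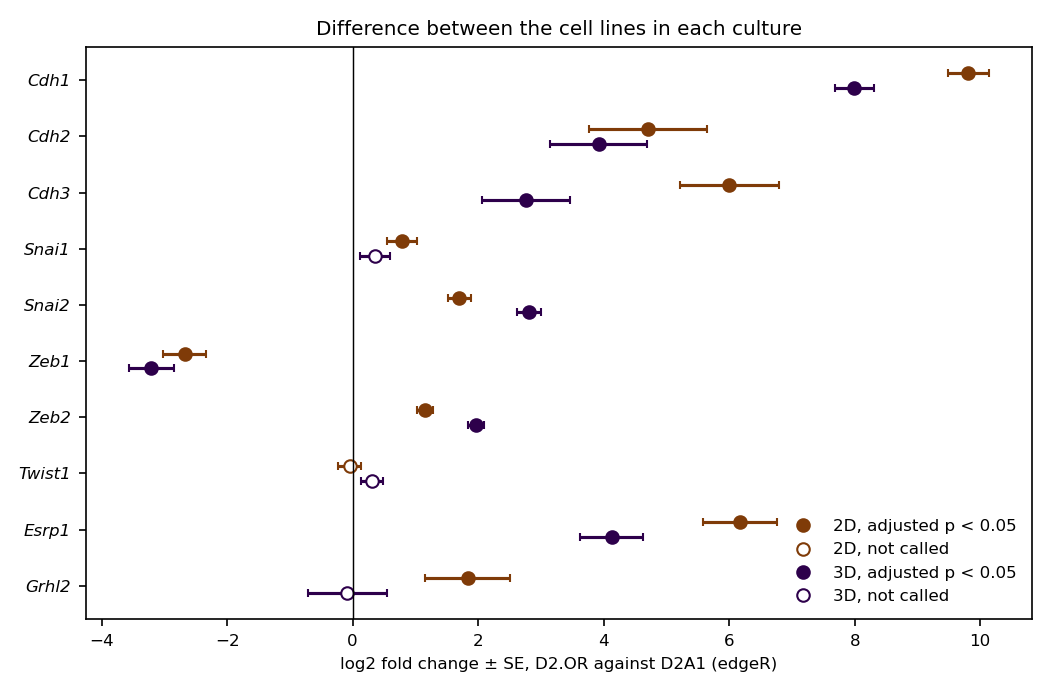
Log2 fold change of D2.OR over D2A1 (horizontal axis) with its SE for each of the 10 genes in 2D and in 3D, from edgeR's fit across all genes, filled where the adjusted p was under 0.05. Zeb1 lies left of 0 in both cultures and Cdh1 reaches 9.81 in 2D, while the values of Cdh2 in both cultures and of Cdh3 and Esrp1 in 2D, with D2A1 at or under 3 counts, depend on the prior count of the fit.

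In 3D, 7 of the 10 genes were called between the lines, 6 higher in D2.OR and Zeb1 lower, against a background of 53.8% of all genes tested. Without Cdh2, Cdh3 and Esrp1, which passed the filter only through D2.OR, Cdh1, Snai2 and Zeb2 were higher and Zeb1 was lower. Snai1, Twist1 and Grhl2 did not pass, so the share called among these was near that background. The TPM ranges of the 7 called genes did not overlap, while those of Snai1, Twist1 and Grhl2 overlapped. Over all genes tested, 57.4% had ranges with no overlap in 3D. In 2D the ranges of 9 did not overlap, Snai1 being the exception, beside 52.8% of all genes tested, and those of Twist1 met at 98.3 TPM after rounding.

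The order of the 10 genes by mean TPM also differed between the lines. In D2A1 2D, Twist1 led with 105 ± 5.46 TPM, followed by Snai1 with 90.7 ± 41.6, and their ranges overlapped. Zeb2, Zeb1 and Snai2 came next, and every cadherin and epithelial regulator had a mean of 0.187 TPM or less. In D2.OR 2D, the mean of Cdh1, 76.2 ± 92.8 TPM, lay between those of Twist1 and Zeb2, a place it held in no library. Cdh1 was the highest of the 10 in batch 1, at 183 TPM, and lay below Zeb2 and Snai2 in batches 2 and 3, at 22.2 and 23.0 TPM. Zeb1 came after Snai2 there, at 5.80 ± 4.39 TPM, and overlapped neither Snai2 above it nor Esrp1 below it (SD, n = 3).

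Among other cadherins, Cdh15 stood furthest apart between the lines. Of 19 other cadherins, 5 passed the filter, and in 2D 3 were higher and 2 lower in D2.OR, beside 49.8% of all genes called. Without the 1 gene at the detection limit in a line, 2 were higher and 2 lower. In 3D 3 of the 5 were higher and 0 lower, beside 53.8% of all genes. M-cadherin, Cdh15, known from muscle, was at 54.2, 87.1 and 52.9 TPM in D2.OR 2D and at 0.06, 0.05 and 0.06 TPM in D2A1 2D, below Cdh1 in batch 1 of D2.OR and above it in batches 2 and 3 (log2 fold change 10.36 ± 0.50, adjusted p = 8.66e-07, edgeR). In D2.OR 3D, Cdh15 was at 33.3, 141 and 112 TPM, with the same order beside Cdh1. With at most 0.06 TPM in every D2A1 library, a call of Cdh15 could hardly be in the other direction. Cdh17, known from the intestine, was higher in D2.OR by 3.05 ± 0.62, and Cdh26 was lower by -4.08 ± 0.76 on the log2 scale (adjusted p = 0.00317 and 0.00209, edgeR). Cdh24 was lower by -0.33 ± 0.11 (adjusted p = 0.0318, edgeR). Cdh26 was at 3.28, 0.47 and 0.29 TPM in batches 1, 2 and 3 of D2A1 2D. In 3D neither Cdh26 nor Cdh24 passed (-1.68 ± 0.76 and 0.26 ± 0.11, adjusted p = 0.0891 and 0.0682, edgeR). Of 12 catenins and cadherin partners, 10 were tested, and 5 were higher and 1 lower in D2.OR in 2D, as were 5 and 1 in 3D, a share near the 49.8% and 53.8% called over all genes. The plakoglobin gene Jup was at 54.3, 19.9 and 45.7 TPM in D2A1 2D and at 116, 96.8 and 102 TPM in D2.OR 2D (log2 fold change 1.63 ± 0.29, adjusted p = 0.00156, edgeR). The p120-catenin gene Ctnnd1, whose protein keeps cadherins at the membrane, was higher by 1.22 ± 0.17, and the actin linker gene Vcl by 1.45 ± 0.25 on the log2 scale, while Ctnnal1 was lower by -0.95 ± 0.17 (adjusted p = 0.000344, 0.00142 and 0.00154, edgeR).

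More epithelial membrane and junction genes were called higher than lower in the E-cadherin line. Of 38, 34 were tested, and in 2D 23 were higher and 0 lower in D2.OR, beside 25.4% of all genes called higher and 24.4% lower. The median log2 fold change was 3.55, or 2.40 with the 8 genes at the detection limit in D2A1 set at their bound, against -0.003 for all genes. Those 8 had at most 3 counts in each D2A1 2D library, so a call could only be in the direction of D2.OR. Of the other 26 genes 15 were higher and 0 lower, beside 49.8% of all genes called. These 26 still held genes low in D2A1, such as Prss8 at 0.09 to 0.14 TPM in D2A1 2D. How many of them passed the filter only through D2.OR was not counted. In 3D 20 were higher and 2 lower, with a median of 1.53, beside 53.8% of all genes called. Without the 5 genes at the limit 15 were higher and 2 lower. The protease gene Prss8 was higher by 6.75 ± 0.23 and the desmoplakin gene Dsp by 8.0 ± 0.41 on the log2 scale in 2D (adjusted p = 1.24e-07 and 1.24e-06, edgeR). The surface glycoprotein gene Cdcp1 and the desmosomal cadherin gene Dsg2 were at most 0.02 TPM in every D2A1 library and at least 596-fold and 677-fold higher in D2.OR 2D against 3 counts (adjusted p = 1.55e-07 and 6.79e-07, edgeR). Epcam was at least 80.9-fold higher (adjusted p = 5.11e-06, edgeR), and Krt8 by 9.56 ± 0.55 (adjusted p = 2.24e-06, edgeR). Of 16 other epithelial regulators, 11 were tested, and 5 were higher and 1 lower in 2D, a share near the 49.8% called over all genes. Esrp2, the paralogue of Esrp1, was at 1.52 to 3.39 TPM in D2A1 2D and 7.77 to 9.71 TPM in D2.OR 2D, and in both lines it was the more abundant of the pair (log2 fold change 2.04 ± 0.22, adjusted p = 8.37e-05, edgeR). The luminal factor genes Gata3 and Foxa1 were higher in D2.OR 2D by 3.01 ± 0.46 and 1.41 ± 0.32 (adjusted p = 0.0007 and 0.00591, edgeR). Foxa1 was low in both lines, at 0.32 to 0.7 TPM in D2A1 2D and 1.05 to 1.43 TPM in D2.OR 2D. In 3D Gata3 was higher by 3.88 ± 0.48 and Foxa1 did not pass (0.62 ± 0.31, adjusted p = 0.000188 and 0.117, edgeR).

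Mesenchymal genes called between the lines were mostly higher in the same line. Of 40, 39 were tested, and in 2D 26 were higher and 3 lower in D2.OR, beside 25.4% of all genes called higher and 24.4% lower. The median log2 fold change was 1.58, against -0.003 for all genes. In 3D 27 were higher and 3 lower, beside 27.7% and 26.1% of all genes, with a median of 1.84. The collagen gene Col3a1 was at 979, 2217 and 1470 TPM in D2.OR 2D and at 19.5, 25.4 and 9.12 TPM in D2A1 2D (log2 fold change 6.80 ± 0.51, adjusted p = 1.18e-05, edgeR). Col6a2, Tnc and Col5a2, also matrix genes, were higher by 7.88 ± 0.46, 7.85 ± 0.50 and 4.46 ± 0.31 (adjusted p = 2.52e-06, 4.48e-06 and 7.03e-06, edgeR). The intermediate filament gene Vim was at 2482, 733 and 794 TPM in D2A1 2D and at 5235, 3939 and 3105 TPM in D2.OR 2D (log2 fold change 1.93 ± 0.24, adjusted p = 0.000216, edgeR). Of 22 other EMT transcription factors, 18 were tested, and 8 were higher and 4 lower in 2D, beside 49.8% of all genes called, and 7 higher and 1 lower in 3D, a share below the 53.8% of all genes. Prrx1 was at 216 to 285 TPM in D2.OR 2D and 37.3 to 51.2 TPM in D2A1 2D (log2 fold change 2.63 ± 0.24), and Id3 was higher by 2.78 ± 0.26 (adjusted p = 3.32e-05 and 3.78e-05, edgeR). Tbx3 took the opposite direction, at 5.11 to 7.13 TPM in D2A1 2D and at most 0.01 TPM in D2.OR 2D, at least 258-fold lower (adjusted p = 2.43e-07, edgeR).

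**Figure D3:**
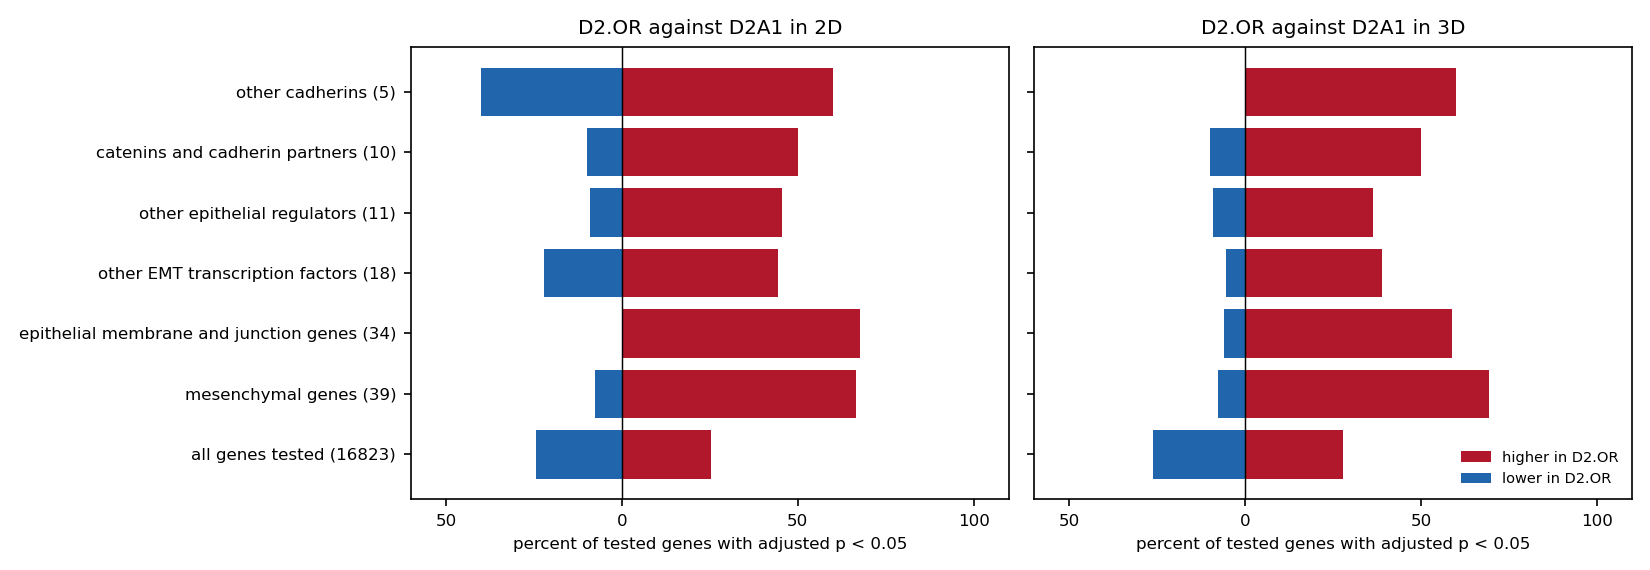
Percent of the tested genes of each list, and of all genes tested (last bar), called higher (right of 0) or lower (left of 0) in D2.OR than in D2A1, in 2D and in 3D, by edgeR's test over all genes, with the number tested in brackets. Epithelial membrane and junction genes (23 higher, 0 lower in 2D) and mesenchymal genes (26 higher, 3 lower) were both mostly higher in D2.OR.

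Fewer of the 10 genes were called between 2D and 3D than between the lines. In D2.OR, 1 of the 10 genes was called, Cdh1, which was lower in 3D, against a background of 1.62% of all genes tested. From 183, 22.2 and 23.0 TPM in 2D, Cdh1 stood at 61.3, 8.93 and 11.5 TPM in 3D. The groups overlapped across batches, with batch 1 high in both, and within each batch 3D was lower, by log2 ratios of -1.71, -1.32 and -1.0. The log2 fold change was -1.36 ± 0.21 (adjusted p = 0.0215, edgeR), and without the batch block it was -1.58 with an adjusted p of 0.499. The call was also lost with limma, without replicate 2 or 3 and without any 1 of the 6 D2.OR libraries, the last with log2 fold changes between -1.58 and -1.09, and was kept without replicate 1. Cdh3 was at 0.76, 0.54 and 0.59 TPM in 2D and at 0.25, 0.05 and 0.21 TPM in 3D, lower in 3D within all 3 batches with no overlap, and did not pass the test (log2 fold change -2.06 ± 0.56, adjusted p = 0.111, edgeR). Cdh3 was called with DESeq2 (adjusted p = 0.0325) and with limma on log2(TPM + 1) and log2(TPM + 0.1) (adjusted p = 0.0193 and 0.0492).

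The EMT factors did not pass between 2D and 3D in D2.OR. Zeb1 was at 10.8, 3.66 and 2.88 TPM in 2D and at 4.34, 1.34 and 1.23 TPM in 3D, with CPM log2 ratios of 0.03, -1.70 and -1.0 within batches 1, 2 and 3 (log2 fold change -0.78 ± 0.35, adjusted p = 0.285, edgeR). It was called without replicate 1, at -1.36, and without the library D2.OR 3D 1. Twist1 was at 98.3, 92.8 and 85.7 TPM in 2D and 187, 160 and 113 TPM in 3D, with no overlap (log2 fold change 0.66 ± 0.18, adjusted p = 0.112, edgeR). It was called in 4 of 23 alternative fits, among them DESeq2, the fit of the 6 D2.OR libraries and the fit without replicate 1 (adjusted p = 0.0298, 0.0349 and 0.0327). Zeb2, at 64.6 to 66.3 TPM in 2D and 67.0 to 80.4 TPM in 3D, also had ranges apart, by less than the spread in 3D. Snai1 overlapped between the cultures, with CPM log2 ratios of 0.0, -0.62 and -1.08 within batches 1, 2 and 3 (log2 fold change -0.56 ± 0.24, adjusted p = 0.266, edgeR). Snai2, Esrp1, Grhl2 and Cdh2 also overlapped. Of the 34 epithelial membrane and junction genes tested 0 were higher and 3 lower in 3D, beside 0.785% of all genes called lower, with a median log2 fold change of -0.65, among them Prss8 (-1.42 ± 0.17, adjusted p = 0.00873, edgeR) and Spint2 (-0.72 ± 0.14, adjusted p = 0.0464, edgeR). Cell type marker lists were also read in this comparison. Summed epithelial markers were at 1145 to 1700 TPM in D2.OR 2D and 364 to 868 TPM in D2.OR 3D, with no overlap, and 0 of 5 tested were called (median log2 fold change -1.31). The summed level of adipocyte markers was 4.41 to 26.8 TPM in D2.OR 2D and 57.4 to 480 TPM in D2.OR 3D, Plin1 rose by 6.10 ± 0.43 and Fabp4 by 3.94 ± 0.74 on the log2 scale (adjusted p = 0.00143 and 0.041, edgeR), and Adipoq was at 0.16 to 2.03 TPM in 3D. Summed fibroblast markers were at 96.0 to 201 TPM in 2D and 191 to 320 TPM in 3D, where Col6a3 rose by 2.23 ± 0.35 on the log2 scale (adjusted p = 0.0229, edgeR), the 1 of 4 tested that was called. The median log2 fold change of the 4 was -0.24, and Pdgfra and Dcn were at -0.05 ± 0.33 and -0.93 ± 1.04 (adjusted p = 0.964 and 0.683, edgeR). The part of these marker lists in the change of Cdh1 was not tested.

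In D2A1, 2 of the 10 genes, Snai2 and Zeb2, were called between 3D and 2D, both lower in 3D, against a background of 3.48% of all genes tested. Snai2 went from 18.4, 14.7 and 9.77 TPM in 2D to 7.58, 4.40 and 5.04 TPM in 3D, and Zeb2 from 27.2, 41.1 and 34.8 to 20.5, 21.2 and 20.6 TPM. The groups did not overlap for either gene, and both were lower in 3D within each batch. The log2 fold change was -1.22 ± 0.18 for Snai2 and -0.67 ± 0.13 for Zeb2 (adjusted p = 0.0234 and 0.0397, edgeR). Without the batch block the adjusted p was 0.0643 and 0.0556. Both calls were lost without replicate 2 or 3, without any 1 of the libraries D2A1 2D 2, D2A1 3D 2 and D2A1 3D 3, and in a fit of the 6 D2A1 libraries alone. The Zeb2 call was also lost without D2A1 2D 3 or without batch 2 or 3 of either D2.OR group. Summed adipocyte markers were at 19.4 to 34.0 TPM in D2A1 2D and 10.9 to 18.2 TPM in D2A1 3D, with 0 of 2 tested called. Of 4 fibroblast markers tested 1 was called, Col6a3, lower in 3D by -1.82 ± 0.37 on the log2 scale (adjusted p = 0.0438, edgeR). The median of the 4 was 1.11, or 0.03 with the 1 gene at the detection limit set at its bound, and Dcn was at 2.16 ± 1.01 (adjusted p = 0.177, edgeR). The part of these markers in the changes of Snai2 and Zeb2 was not tested.

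Among the 10 genes, Grhl2 had the largest fitted change between the cultures of D2A1. It was at 0.12, 0.25 and 0.19 TPM in 2D and at 0.32, 1.37 and 0.73 TPM in 3D, and was higher in 3D within all 3 batches (log2 fold change 2.01 ± 0.67). It did not pass (adjusted p = 0.0849, edgeR) and was called without replicate 1, without the library D2A1 3D 1, with DESeq2 and with batch fitted within each line. Of the 34 epithelial membrane and junction genes tested, 2 were higher and 1 lower in D2A1 3D, beside 3.48% of all genes called. Those outside the rule for named genes, Pkp3, higher, and Tjp1, lower, are named after their values were seen. The desmoplakin gene Dsp rose by 2.13 ± 0.37 on the log2 scale in D2A1 3D, from 0.08 to 0.14 TPM in 2D to 0.25 to 0.63 TPM in 3D (adjusted p = 0.0354, edgeR). Cdh1 stayed at or below 0.28 TPM in both D2A1 cultures (log2 fold change 0.45 ± 0.42, adjusted p = 0.489, edgeR). Zeb1, at 16.2 to 24.1 TPM in 2D and 11.8 to 16.4 TPM in 3D, overlapped between the cultures (log2 fold change -0.24 ± 0.33, adjusted p = 0.647, edgeR). Of 18 other EMT transcription factors tested, 3 were higher and 1 lower in D2A1 3D. The higher ones included Id1 and Id3 (1.24 ± 0.16 and 1.93 ± 0.25, each adjusted p = 0.0184, edgeR). Among 39 mesenchymal genes tested, 0 were higher and 3 lower.

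Whether the step to 3D differed between the lines was tested by the interaction of line and culture. Of the 10 genes, 0 were called by edgeR's quasi-likelihood test, beside a background of 0.0238% of all genes tested (4 genes), and 5 had an unadjusted p under 0.05. DESeq2 called 3, Cdh1, Snai2 and Zeb2. For Cdh1 the change in D2.OR minus that in D2A1 was -1.82 ± 0.47 (adjusted p = 0.145, edgeR), for Snai2 1.11 ± 0.25 (adjusted p = 0.11, edgeR) and for Zeb2 0.81 ± 0.18 (adjusted p = 0.112, edgeR). The calls of Cdh1 in D2.OR and of Snai2 and Zeb2 in D2A1 are therefore not shown to belong to 1 line.

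Batch 1 stood apart from batches 2 and 3 in several of the 10 genes. In D2.OR, 2 were called, Cdh1 and Grhl2, both higher in batch 1, beside a background of 3.85% of all genes tested. Cdh1 was at 496, 59.5 and 61.3 CPM in D2.OR 2D and at 152, 23.7 and 30.6 CPM in D2.OR 3D. Batch 1 was 8.22 times the mean of batches 2 and 3 in 2D and 5.59 times in 3D, whereas batches 2 and 3 differed by 1.03 and 1.29 times. The log2 difference was 2.77 ± 0.18 (adjusted p = 0.00192, edgeR). Batch 1 exceeded the other batches in Cdh1 by more than 3D differed from 2D within any batch.

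**Figure D4:**
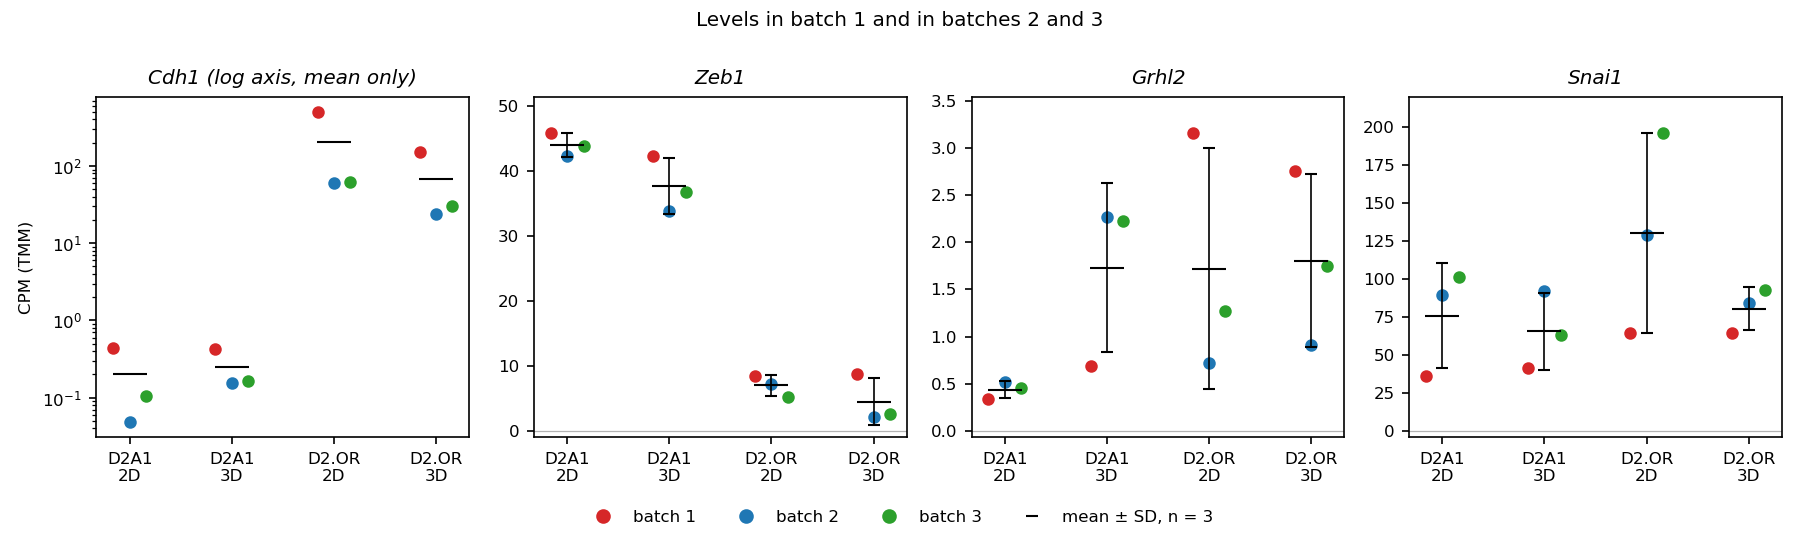
CPM (vertical axes, TMM-scaled) of Cdh1, Zeb1, Grhl2 and Snai1 in each library of the 4 groups, coloured by batch, with the mean ± SD (n = 3), or the mean only on the log axis of Cdh1. Batch 1 is highest for Cdh1 in all 4 groups and lowest for Snai1 in all 4, while for Grhl2 it is highest in D2.OR and lowest in D2A1.

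Grhl2 was at 3.16, 0.727 and 1.27 CPM in D2.OR 2D and at 2.75, 0.917 and 1.75 CPM in D2.OR 3D, with batch 1 the highest in both (log2 difference 1.42 ± 0.30, adjusted p = 0.0477, edgeR). This call held in 5 of 17 alternative fits and was lost without any 1 of 10 single libraries, all but D2A1 2D 1 and D2A1 3D 1. Zeb1, the repressor, was also highest in batch 1 of D2.OR, at 8.54, 7.31 and 5.30 CPM in 2D and 8.75, 2.24 and 2.65 CPM in 3D, and did not pass (1.17 ± 0.29, adjusted p = 0.0746, edgeR). Other epithelial genes of the lists that were higher in batch 1 of D2.OR included Klf4 (1.25 ± 0.22) and Spint2 (0.95 ± 0.11), with adjusted p = 0.0294 and 0.00838 (edgeR). In D2A1, Klf4 took the opposite direction in batch 1 and did not pass (-1.01 ± 0.24, adjusted p = 0.0529, edgeR). Of 39 mesenchymal genes 1 was higher and 1 lower in batch 1 of D2.OR, a share near the 3.85% called over all genes. The integrin gene Itgb3 was the lower one, at 0.52, 5.57 and 8.79 TPM in D2.OR 2D (-3.19 ± 0.50, adjusted p = 0.0196, edgeR). Vim was higher in batch 1 of both lines, by 0.68 ± 0.13 in D2.OR and 1.58 ± 0.12 in D2A1 (adjusted p = 0.0336 and 0.00169, edgeR). Of the whole epithelial membrane and junction list, 1 of 34 genes was higher and 0 lower in batch 1 of D2.OR, also near that share.

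In D2A1, 2 of the 10 genes were called between batch 1 and batches 2 and 3, Cdh1 higher and Snai1 lower, beside a background of 6.32% of all genes tested. Cdh1 was at 0.445, 0.0488 and 0.105 CPM in D2A1 2D and at 0.425, 0.154 and 0.162 CPM in D2A1 3D (log2 difference 1.87 ± 0.35, adjusted p = 0.0234, edgeR), from at most 30 counts in a library. The call was lost without any 1 of the libraries D2A1 2D 1, 2 and 3 and D2A1 3D 3. Snai1 was at 36.5, 89.6 and 101 CPM in D2A1 2D and at 41.6, 92.0 and 63.3 CPM in D2A1 3D (log2 difference -1.13 ± 0.25, adjusted p = 0.0436, edgeR). That call was lost without any 1 of 7 libraries, D2A1 2D 1, 2 and 3, D2A1 3D 1 and 2, D2.OR 2D 2 and D2.OR 3D 2. In D2.OR, Snai1 was at 64.6, 129 and 196 CPM in 2D and at 64.8, 84.0 and 92.5 CPM in 3D, again lowest in batch 1, and did not pass (-0.86 ± 0.25, adjusted p = 0.111, edgeR). All 4 batch calls, that of Cdh1 in D2.OR included, were lost when culture was left out of the fit. Of 39 mesenchymal genes tested, 7 were higher and 1 lower in batch 1 of D2A1, a larger share than the 6.32% over all genes. Among 34 epithelial membrane and junction genes tested, 4 were higher and 0 lower there.

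The batch difference itself was compared between the lines. Of the 10 genes, 0 were called by edgeR's test, beside a background of 0.137% of all genes tested, 5 had an unadjusted p under 0.05, and DESeq2 called 1, Grhl2. For Grhl2, batch 1 was the highest of the 3 in D2.OR and the lowest in D2A1, where it was at 0.344, 0.520 and 0.457 CPM in 2D and 0.695, 2.27 and 2.23 CPM in 3D, and the difference of the differences was 2.59 ± 0.47 (adjusted p = 0.117, edgeR). For Cdh1 it was 0.91 ± 0.42 (adjusted p = 0.515, edgeR).

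As a description over the 12 libraries, the genes whose log2(TPM + 1) followed Cdh1 most closely among 13865 genes were Pdzk1ip1 (Pearson r 0.994), Tnik (0.992), Gpr176 (0.992), Ripk4 (0.991) and Il3ra (0.99). All 5 were at most 0.22 TPM in D2A1, and Tnik, the highest of them, was at 2.20 to 17.4 TPM in D2.OR. For Zeb1 they were Strbp (0.982), Cuedc2 (0.975), Gstm2 (0.971), Khk (0.969) and Dmap1 (0.969). Among the 10 genes themselves, Cdh1 had r of 0.86 with Snai2, 0.845 with Zeb2, 0.443 with Grhl2, 0.246 with Snai1, 0.077 with Twist1 and -0.607 with Zeb1. Cdh2, Cdh3 and Esrp1 reached 1 TPM in fewer than 3 libraries and were left out. The 12 libraries share lines and batches.

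The E-box of the printed promoters was then counted over the lists, with the motif chosen while the results were known. CAGGTG on either strand was in 20.2% of all 32851 promoters of the table, and in 21.9% of those with at least 55% GC. Among the epithelial membrane and junction genes, 24 of 29 promoters (82.8%) held it, from 20 of 24 genes with a promoter in the table, at a median GC of 62.3%. Among the mesenchymal genes 1 of 29 promoters (3.4%) held it, among the other EMT transcription factors 0 of 13, among the other epithelial regulators 5 of 11, among the catenins 3 of 18 and among the other cadherins 3 of 14. Of the epithelial junction genes with an E-box, 18 were tested between the lines in 2D and 13 were higher in D2.OR, and of those without, 4 were tested and 2 were higher. The epithelial membrane and junction list holds genes already known as targets of these repressors.

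**Figure D5:**
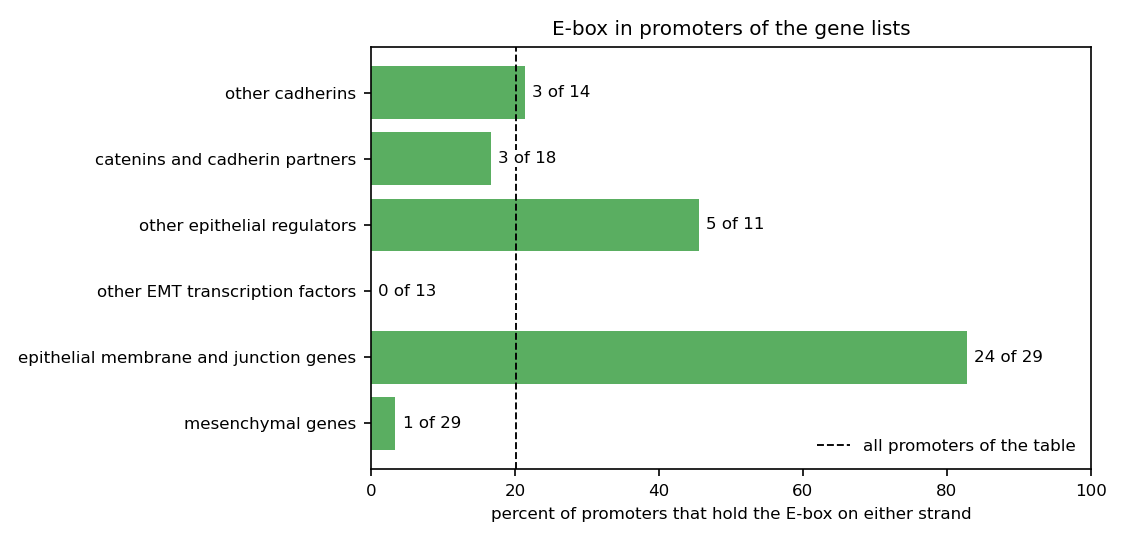
Share of promoters with CAGGTG on either strand (horizontal axis, percent) in each gene list, with the numbers beside the bars and the share over all promoters, 20.2%, as a dashed line. The epithelial membrane and junction list stands at 82.8% and the mesenchymal list at 3.4%.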

How the data were processed

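The data were 12 RNA-seq libraries of 2 mouse mammary carcinoma lines, with 3 replicates in each of 4 groups. According to the study's methods and the labels, the authors checked reads with FastQC 0.11.4, trimmed them with Trimmomatic 0.32, aligned them with STAR 2.5.3 to GRCm38 and quantified genes with RSEM 1.3.0. The deposited expected counts and TPM were used, as were the deposited transcript lengths, which the authors' RSEM run weighted by isoform. Lengths served only to read TPM of Zeb1. The deposited FPKM were not used. The series table of TPM held the same values as the library files.

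Expected counts, of which 10.7 to 11.8% were not whole, were rounded and tested with edgeR 4.0.16 (R 4.3.3), using its quasi-likelihood test with TMM scaling and its filter on low counts by group, which kept 16823 genes. The fit held the 4 groups and batch, as in the study's own model, over all 12 libraries. Batch contrasts used batch within each line. Calls had a Benjamini-Hochberg adjusted p under 0.05, two-sided. The biological coefficient of variation was 21.2%. A count of 3 per library was taken as the detection limit, and folds against a group at or under it are bounds that cover counting error only. Libraries of 1 group were compared over 12 pairs, and none agreed within sampling noise (chi-square per degree of freedom at least 28.18). Batch numbers come from the labels. Deviations from the group means of same-numbered libraries correlated at 0.08 to 0.51 (median 0.27, 18 pairs), and those of other numbers at a median of -0.19. The fits were tested on simulated data.

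The 10 genes and all gene lists were chosen with earlier results of these data known. All 10 genes are given, and from each list the 4 genes with the smallest p between the lines in 2D and the 2 with the smallest p for batch 1 in D2.OR, among genes with a mean of at least 1 TPM in a group. Some genes that this rule names are not reported here. For Krt8, Epcam, Dsp, Plin1, Fabp4 and Adipoq, levels were also taken from the marker lists. Correlations took genes with at least 1 TPM in 3 libraries. Alternatives were DESeq2 1.42.0, limma 3.58.1 on log2(TPM + 1) and log2(TPM + 0.1), other scaling, no filter, other blocks, fewer libraries and each library left out.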

Additional observations from a re-analysis of the deposited data

How the results depend on the processing

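The line differences of Cdh1, Snai2, Zeb1, Zeb2 and Esrp1 in 2D and in 3D kept their direction and their call in all 23 alternative fits. Over 38 fold changes and 827 alternative values, 698 kept direction and side of the threshold, 85 lost the call, 29 gained it and 15 changed sign. The sign changes were of differences that had not been called. Grhl2 between the lines in 3D was 0.06 with no block, 0.08 with the block within each line, 0.05 and 0.17 with limma on log2(TPM + 1) and log2(TPM + 0.1) and 0.07 with only the 6 libraries compared, and ranged from -0.81 to 0.61 with libraries left out. Twist1 between the lines in 2D ranged from -0.14 to 0.04.

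The number of the 10 genes called moved as follows, and the cause was not tested. For 3D against 2D it was 0 in D2.OR and 0 in D2A1 without the replicate block, 3 in D2.OR with DESeq2, and 2 in D2.OR and 0 in D2A1 with only the 6 libraries compared. For the interaction it was 3 with DESeq2. For batch 1 it was 0 in D2.OR and 0 in D2A1 with no culture term, 4 in D2.OR with DESeq2 and 4 with no filter, and 0 in D2A1 with limma on log2(TPM + 1). For the batch difference between the lines it was 1 with DESeq2, 1 with limma on log2(TPM + 1) and 1 with no filter. With libraries left out it ranged from 6 to 9 between the lines in 2D, 6 to 7 in 3D, 0 to 3 for culture in D2.OR, 0 to 4 for culture in D2A1, 0 to 4 for the interaction, 1 to 2 and 0 to 2 for batch 1 in D2.OR and D2A1, and 0 to 1 for its difference. Without replicate 1, Cdh1, Zeb1 and Twist1 were called in D2.OR, Snai2, Zeb2, Twist1 and Grhl2 in D2A1, and Cdh1, Zeb1, Zeb2 and Grhl2 for the interaction.

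Over all genes, the 273 calls for 3D against 2D in D2.OR became 20 without the block, 1239 with DESeq2, 415 with no filter and 809 with 6 libraries. The 586 in D2A1 became 52 without the block, 279 with the block within each line, 3581 with DESeq2, 1135 with limma on log2(TPM + 0.1), 1117 with no filter and 15 with 6 libraries. The 4 of the interaction became 0 without the block, 31 with the block within each line, 978 with DESeq2, 13 and 9 with limma at a pseudocount of 1 and 0.1, and 96 with no filter. With no culture term, with DESeq2 and with no filter, the 648 of batch 1 in D2.OR became 47, 1739 and 1130, and the 23 of the batch difference 0, 426 and 149, or 100 with limma. The 1063 of batch 1 in D2A1 became 171 with no culture term and 1881 with DESeq2. With libraries left out, the calls ranged over 4227 to 9062 and 5273 to 10298 between the lines, 0 to 1412 and 0 to 6120 for culture in D2.OR and D2A1, 0 to 2999 for the interaction, and 78 to 2051, 351 to 1218 and 0 to 734 for batch 1 in D2.OR, in D2A1 and their difference. Depth limits Cdh2, Cdh3 and Esrp1 in D2A1, which had at most 9 counts in any library.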
